A study of Mus musculus with 28 samples.

Results

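Fibroblast growth factor (FGF) ligands and their receptors were followed through sorted stromal and luminal cells of the mouse mammary gland. The 9 genes comprised 5 ligands (Fgf1, Fgf2, Fgf7, Fgf10 and Fgf18) and 4 receptors (Fgfr1, Fgfr2, Fgfr3 and Fgfr4). Each was taken by its Ensembl gene ID from a table of read counts for 50600 genes, and all 9 were found. The cells came from 7 adult PdgfraCre R26mTmG female mice aged 10 to 12 weeks, 4 of them untreated and 3 given estrogen and progesterone (E+P). In these mice a cell and its progeny turn from membrane tdTomato to membrane eGFP (GFP+) once Cre, expressed from Pdgfra, has recombined the reporter. GFP+ therefore marks past as well as present Pdgfra-Cre activity. A tdTomato+ cell is one in which Cre has not switched the reporter. Lineage-negative cells of each mouse were sorted into GFP+ and tdTomato+ stromal (CD49f-EpCAM-) and GFP+ and tdTomato+ luminal (CD49f lo EpCAM+) fractions, which gave 28 libraries in 8 groups of 4 untreated or 3 E+P samples. All groups carried the Cre driver and the reporter, and no library of a Cre-negative mouse was used here. For hormone pellets the methods give 0.14 mg estradiol and 14 mg progesterone over 14 days, in a sentence on wild-type mice.

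FGFs are secreted signals that bind tyrosine kinase receptors together with heparan sulphate chains on the cell surface, and the receptors then act through FRS2 and the RAS-MAPK cascade. FGF7 and FGF10 are mesenchymal ligands whose main receptor is the epithelial splice form of FGFR2, and FGF10 with FGFR2 is known for its part in forming the mammary bud and in branching of the ducts. FGF1 binds all receptors of the family, FGF2 acts mainly through mesenchymal splice forms, and FGF18 is best known from bone, cartilage and lung. Counts per gene do not separate the splice forms of a receptor.

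The 250 bases upstream of the RefSeq start were read for the 4 ligands that were higher in GFP+ stroma and for Fgfr2 and Fgfr4. Fgfr2 had its own highest level in tdTomato+ luminal cells and Fgfr4 in tdTomato+ stroma. They are from GRCm38.p6, written 5' to 3' on the strand of the gene, with capitals at matches of either strand to the GC box GGGCGG and to GGTCA, the core letters of an estrogen receptor site.
Fgf2, chr3:37348403-37348652, plus strand: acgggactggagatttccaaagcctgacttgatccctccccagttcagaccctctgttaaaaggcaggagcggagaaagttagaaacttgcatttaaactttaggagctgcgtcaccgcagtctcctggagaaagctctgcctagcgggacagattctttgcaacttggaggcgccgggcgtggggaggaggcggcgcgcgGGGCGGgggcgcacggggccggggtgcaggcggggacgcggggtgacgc
Fgf7, chr2:126034408-126034657, plus strand: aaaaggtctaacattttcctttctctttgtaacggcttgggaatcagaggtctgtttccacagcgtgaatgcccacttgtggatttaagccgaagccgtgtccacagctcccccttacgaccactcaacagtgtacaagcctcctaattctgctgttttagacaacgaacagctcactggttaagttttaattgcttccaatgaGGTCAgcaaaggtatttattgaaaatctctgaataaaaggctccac
Fgf10, chr13:118714449-118714698, plus strand: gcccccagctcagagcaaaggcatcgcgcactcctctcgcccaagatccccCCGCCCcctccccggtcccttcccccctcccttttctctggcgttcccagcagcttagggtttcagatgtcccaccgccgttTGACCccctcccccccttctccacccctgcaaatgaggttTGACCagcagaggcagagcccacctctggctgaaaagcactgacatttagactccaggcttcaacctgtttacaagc
Fgf18, chr11:33147401-33147650, minus strand: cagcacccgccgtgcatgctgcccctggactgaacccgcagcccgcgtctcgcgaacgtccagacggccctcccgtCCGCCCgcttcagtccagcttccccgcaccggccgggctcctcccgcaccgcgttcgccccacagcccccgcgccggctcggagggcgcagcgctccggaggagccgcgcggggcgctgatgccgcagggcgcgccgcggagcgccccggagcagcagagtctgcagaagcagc
Fgfr2, chr7:130266809-130267058, minus strand: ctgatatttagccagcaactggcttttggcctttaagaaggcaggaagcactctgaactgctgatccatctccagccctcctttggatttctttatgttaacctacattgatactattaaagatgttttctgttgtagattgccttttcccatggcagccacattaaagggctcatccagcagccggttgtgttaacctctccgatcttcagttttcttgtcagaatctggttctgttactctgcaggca
Fgfr4, chr13:55152568-55152817, plus strand: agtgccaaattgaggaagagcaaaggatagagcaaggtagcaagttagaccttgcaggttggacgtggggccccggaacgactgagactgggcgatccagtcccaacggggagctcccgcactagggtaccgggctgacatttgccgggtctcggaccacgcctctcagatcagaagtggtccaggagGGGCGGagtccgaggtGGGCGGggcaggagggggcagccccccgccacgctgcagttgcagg
The windows searched reached 50 bases past the start and were compared with 32851 windows of the same length, of which 35.7% held GGGCGG and 40.5% held GGTCA. In the windows shown, GGTCA was found 2 times for Fgf10 and 1 time for Fgf7. TATAAA, held by 13.6% of windows, TGTTCT of the progesterone receptor, held by 19.0%, CAGCTG of the MyoD type, held by 16.3%, and the ETS core CCGGAAG, held by 8.86%, were not found in these windows. The GC content ran from 43.7% for Fgfr2 and 45.7% for Fgf7 to 78.7% for Fgf18, against a median of 52.7%. The Fgf18 window held 47 CpG sites, Fgf10 10 and Fgfr2 4, where the median window held 7. A match describes letters and not a bound site.

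Total counts were 8623383 to 24583803 reads per library, so that 3 reads corresponded to 0.116 to 0.302 CPM, the read count relative to the library total after TMM scaling. Summed fibroblast markers were 26318 to 51104 CPM in GFP+ stromal libraries, 1478 to 5388 in tdTomato+ stromal libraries and at most 94.8 in luminal libraries. Luminal epithelial markers summed to 3703 to 6736 CPM in luminal libraries and to 2.82 to 432.4 in stromal libraries, with tdTomato+ stromal untreated replicates 2 and 3 the highest at 260.1 and 432.4. In the tdTomato+ stromal libraries, pericyte and smooth muscle markers summed to 4854 to 8034 CPM, skeletal muscle markers to 2380 to 21090 and satellite cell markers to 201.4 to 338.8, whereas GFP+ stromal libraries stayed at or below 106.9, 16.1 and 1.14. Adipocyte markers summed to at most 10.1 CPM, immune markers to 30.4 and endothelial markers to 230.4 over all libraries. Schwann cell markers were at most 21.6 CPM in stroma and 42.0 to 314.3 in luminal libraries, and basal markers reached 131.8 in GFP+ luminal E+P libraries. In bulk samples of this kind, fewer cells of a type and less RNA per cell cannot be told apart.

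**Figure D1:**
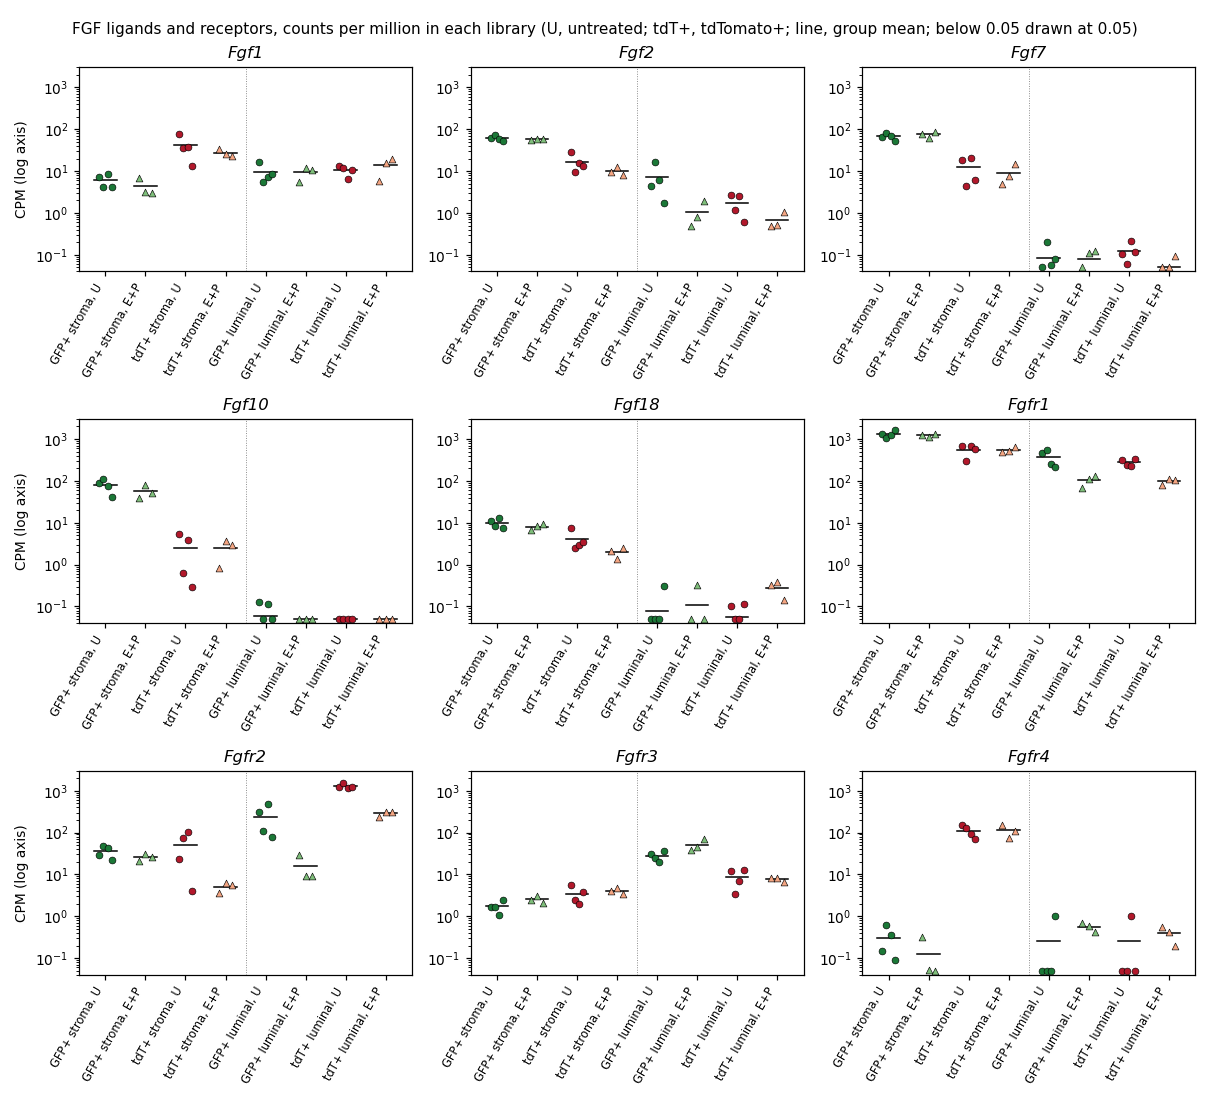
CPM on a log axis of each ligand and receptor gene in each of the 28 libraries, by group, with circles for untreated mice, triangles for E+P mice and a line at the group mean; values below 0.05 CPM are drawn at 0.05. Fgf7 lies between 52.8 and 87.4 CPM in GFP+ stroma and at or below 0.217 CPM in luminal cells, and Fgfr4 stands at 70.5 to 152.5 CPM in tdTomato+ stroma and at or below 1.02 CPM in the other groups.

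Levels of different genes were compared per kilobase of merged exons. In untreated GFP+ stroma, Fgfr1 was the most abundant at 134.0 ± 26.6 CPM per kb (SD, n = 4), followed by Fgf7 at 20.7 ± 3.94 and Fgf10 at 17.0 ± 6.24, whose spreads overlapped. Fgf2 at 9.15 ± 1.35 and Fgf18 at 8.46 ± 2.24 CPM per kb came next and overlapped as well. Of the ligand sum per kb in this group, Fgf7 made up 37.0%, Fgf10 29.3%, Fgf2 16.5%, Fgf18 15.2% and Fgf1 2.0%. In untreated tdTomato+ stroma Fgf1 held 41.1 ± 13.0% of the ligand sum and Fgf10 2.48 ± 1.82% (SD, n = 4). The receptor sum was led by Fgfr1 in both untreated stromal fractions and by Fgfr2 in untreated tdTomato+ luminal cells. Fgfr1 held 97.1% of it in untreated GFP+ stroma and Fgfr1 and Fgfr4 held 60.1% and 34.0% in untreated tdTomato+ stroma. In untreated luminal cells, Fgfr2 held 80.5 ± 4.26% of the receptor sum per kb in the tdTomato+ group and 34.0 ± 20.2% in the GFP+ group (SD, n = 4). In untreated GFP+ luminal cells Fgfr1 held more on average, 58.6 ± 18.3% (SD, n = 4), with ranges that overlapped. Fgfr3 held 7.18 ± 4.92% in that group (SD, n = 4). In GFP+ luminal cells with E+P, Fgfr1 held 53.8 ± 8.12%, Fgfr3 36.4 ± 3.2% and Fgfr2 8.92 ± 8.24% (SD, n = 3). With the length of the longest transcript in place of merged exons, places in these orders changed in 3 of the 8 groups.

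The first comparison asked which of these genes separate stroma from luminal cells. Of the 9 genes, 6 were higher in stroma (Fgf2, Fgf7, Fgf10, Fgf18, Fgfr1 and Fgfr4), 2 were higher in luminal cells (Fgfr2 and Fgfr3) and Fgf1 did not pass an adjusted p of 0.01 in edgeR's quasi-likelihood test. Among all 19569 genes tested, 63.5% passed, 33.0% higher and 30.5% lower in stroma. Fgf7, Fgf10 and Fgf18 passed the low-count filter in the stromal libraries alone but not in the luminal libraries alone. Their direction in this comparison was therefore set in part by the filter.

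Fgf10, located on chr13:118669791-118792115, was read almost only in stroma. The 14 stromal libraries held 7573 reads of it and the 14 luminal libraries 4, all in GFP+ luminal untreated replicates 1 and 3. GFP+ stroma had 88.4, 109.3, 74.4 and 40.9 CPM without and 39.1, 81.8 and 51.0 CPM with hormone, and tdTomato+ stroma 5.33, 0.633, 3.85 and 0.292 CPM without and 0.817, 3.66 and 3.0 CPM with hormone. Every GFP+ stromal library lay above every tdTomato+ stromal library. In the 7 tdTomato+ luminal libraries no read was found, which allows up to 0.0227 CPM over the libraries together, so that the tdTomato+ stromal mean of 2.51 CPM was at least 110.7-fold higher. The fitted log2 change between stroma and luminal cells, 9.88 ± 0.67 (SE; adjusted p = 8.6e-10, edgeR), depends on the prior count because 12 of the 14 luminal libraries had no read.

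Fgf7, or keratinocyte growth factor, on chr2:126034658-126091185, was likewise high in GFP+ stroma, lower in tdTomato+ stroma and near 0 in luminal cells. It stood at 64.1, 83.7, 68.9 and 52.8 CPM in untreated and 78.4, 62.4 and 87.4 CPM in E+P GFP+ stroma, and at 4.43 to 20.9 CPM in the 7 tdTomato+ stromal libraries. In the 14 luminal libraries 20 reads were counted and no library exceeded 0.217 CPM. Stroma exceeded luminal cells by 8.43 ± 0.36 on the log2 scale (SE; adjusted p = 2e-16, edgeR), in 7 of 7 mice.

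Fgf2, on chr3:37348346-37410108, was present in every library but at different levels. GFP+ stroma had 51.4 to 73.5 CPM, tdTomato+ stroma 7.9 to 28.1 CPM and luminal cells 0.476 to 16.1 CPM. The log2 change between stroma and luminal cells was 3.98 ± 0.3 (SE; adjusted p = 1.6e-11, edgeR). In GENCODE M21, 9.44% of the exonic bases of Fgf2 overlap the antisense gene Nudt6, and the strand setting of the counts was not given in the sources used here, so part of these reads could belong to that neighbour.

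Fgf18, on chr11:33117430-33147400, is a ligand of low read count in these cells. It had 6.66 to 13.3 CPM in GFP+ stroma and 1.38 to 7.42 CPM in tdTomato+ stroma, ranges that overlapped at 1 tdTomato+ library, untreated replicate 1. In luminal cells it gave 31 reads over 14 libraries, and the change was 5.43 ± 0.41 on the log2 scale (SE; adjusted p = 5.3e-12, edgeR).

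Fgf1, on chr18:38838673-38929472, differed from the other ligands in that stroma and luminal cells overlapped. The 14 luminal libraries had a median of 10.7 and at least 5.64 CPM, and the 14 stromal libraries a median of 10.8 and 3.05 to 77.3 CPM, a log2 change of 0.29 ± 0.24 (SE; adjusted p = 0.29, edgeR), higher in stroma in 4 of 7 mice. The sign of this value turned with total count scaling, to -0.01. Within the tdTomato+ cells stroma was higher by 1.47 ± 0.34 (SE; adjusted p = 0.00055, edgeR), in 7 of 7 mice. Within the GFP+ cells the log2 change was -0.88 ± 0.35 and did not pass (SE; adjusted p = 0.033, edgeR). That test passed without E+P replicate 1 (adjusted p = 0.0061, edgeR) and with total count scaling (adjusted p = 0.0022, edgeR).

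By the mean over both subsets, Fgfr1 and Fgfr4 were higher in stroma and Fgfr2 and Fgfr3 in luminal cells. Fgfr1, the main receptor of mesenchymal cells, on chr8:25513654-25575718, had 1050.0 to 1682.5 CPM in GFP+ stroma, 301.8 to 689.9 in tdTomato+ stroma and 68.2 to 535.1 in luminal cells. The log2 change of stroma over luminal cells was 2.21 ± 0.15 (SE; adjusted p = 2.5e-12, edgeR). Fgfr1 was thus read in every luminal library, at a lower mean level than in stroma. Untreated luminal libraries overlapped with tdTomato+ stroma.

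Fgfr2, on chr7:130162451-133123350 in GENCODE M21, was highest in luminal cells. This gene model begins far upstream of the RefSeq start used above, and its merged exons of 10328 bases exceed the longest transcript, of 4429 bases, so the value per kb depends on the model. The tdTomato+ luminal libraries had 1196.1, 1567.9, 1139.0 and 1212.1 CPM without and 241.5, 308.3 and 307.1 CPM with hormone, and GFP+ luminal libraries had 303.2, 110.3, 471.3 and 79.8 CPM without and 29.3, 9.16 and 9.08 CPM with hormone. Stromal libraries lay between 3.53 and 102.4 CPM. Stroma was lower by a log2 change of -3.12 ± 0.36 (SE; adjusted p = 7.8e-08, edgeR), and this rested mainly on the tdTomato+ cells, in which the change was -5.24 ± 0.57 (SE; adjusted p = 3.8e-08, edgeR). In the GFP+ cells it was -1.01 ± 0.48 and did not pass (SE; adjusted p = 0.073, edgeR), and E+P GFP+ luminal libraries overlapped with GFP+ stroma. Without the pair of GFP+ luminal libraries highest in hormone-sensing markers it was -0.34 (adjusted p = 0.59, edgeR). Of its exonic bases 3.04% are shared with Ctbp2 on the same strand.

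Fgfr3, a receptor best known as a brake on bone growth, on chr5:33721674-33737068, had 20.2 to 69.2 CPM in GFP+ luminal cells, 3.47 to 12.8 in tdTomato+ luminal cells and 1.1 to 5.52 in stroma. Stroma was lower by a log2 change of -2.67 ± 0.19 (SE; adjusted p = 1.6e-12, edgeR), in 7 of 7 mice. An antisense transcript covers 13.9% of its exonic bases.

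Fgfr4, a receptor found in myogenic cells and liver, on chr13:55152640-55168759, was read almost only in tdTomato+ stroma. The 7 libraries of that fraction had 152.3, 126.7, 94.2 and 70.5 CPM without and 152.5, 73.5 and 110.3 CPM with hormone. The other 21 libraries had at most 1.02 CPM and did not overlap with them. The log2 change between stroma and luminal cells was 3.83 ± 0.89 (SE; adjusted p = 0.00053, edgeR) as a mean over both subsets, 8.64 ± 0.62 within tdTomato+ cells (SE; adjusted p = 2.8e-11, edgeR) and -0.99 ± 0.95 within GFP+ cells (SE; adjusted p = 0.38, edgeR). Without untreated replicate 3, whose tdTomato+ luminal library held 14 of the 35 reads of that fraction, the tdTomato+ value was 11.02. The mean over both subsets no longer passed without E+P replicate 1 (adjusted p = 0.12, edgeR), and the GFP+ value turned to 1.64 without untreated replicate 4 (adjusted p = 0.35, edgeR). Within GFP+ cells 6 of 9 genes passed, against 52.5% of all genes, and within tdTomato+ cells 9 of 9, against 59.3%.

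**Figure D2:**
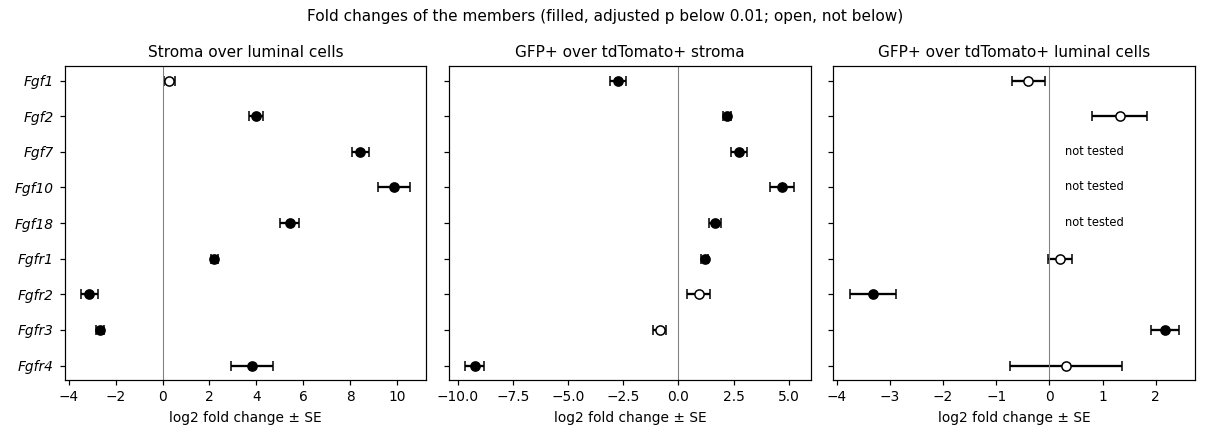
Log2 fold change of each gene with its standard error for stroma over luminal cells, GFP+ over tdTomato+ stroma and GFP+ over tdTomato+ luminal cells, with filled points where the edgeR adjusted p was below 0.01. Fgf2, Fgf7, Fgf10 and Fgf18 are above 0 in the left and middle panels, and Fgfr4 is at -9.24 in the middle panel.

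The next question was how GFP+ stroma, which descends from or expresses Pdgfra, differs from the tdTomato+ stroma of the same mouse. Of the 9 genes 7 passed, where 42.0% of 17783 genes did: 5 were higher in GFP+ stroma, against 20.6% of all genes, and 2 lower, against 21.3%. The ligands Fgf10 at 4.71 ± 0.54, Fgf7 at 2.73 ± 0.36, Fgf2 at 2.2 ± 0.19 and Fgf18 at 1.65 ± 0.27 (log2 change ± SE) were all higher in GFP+ stroma, with edgeR adjusted p of 1.4e-05, 3.6e-05, 5.7e-08 and 4.9e-05. Fgfr1 was higher by 1.19 ± 0.16 (SE; adjusted p = 8.9e-06, edgeR). For each of these genes the direction was the same in 7 of 7 mice, and the exact two-sided sign-flip test gave p = 0.0156, the smallest that 7 mice allow, and 0.0206 after adjustment over 54 tests. Summed fibroblast markers moved with these genes, as given above, and their part in the result was not tested.

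Fgf1 and Fgfr4 ran the other way. Fgf1 had 77.3, 36.1, 38.1 and 13.0 CPM in untreated and 34.3, 25.6 and 23.2 CPM in E+P tdTomato+ stroma, and 3.05 to 8.48 CPM in GFP+ stroma, with no overlap between the fractions. The log2 change was -2.74 ± 0.36 (SE; adjusted p = 2e-05, edgeR). For Fgfr4 it was -9.24 ± 0.41 (SE; adjusted p = 3.1e-10, edgeR). The satellite cell markers Pax7, Myf5, Myod1 and Chodl moved with Fgfr4: all 4 were detected in tdTomato+ stroma, where Pax7 stood at 70.1 to 187.7 CPM, and in GFP+ stroma their sum was at most 1.14 CPM, with Pax7 at or below 0.0918. Whether these cells account for Fgfr4 was not tested.

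Fgfr2 and Fgfr3 did not pass between the stromal fractions. Fgfr2 had 29.0, 48.4, 43.9 and 22.7 CPM in untreated and 20.7, 31.1 and 25.9 CPM in E+P GFP+ stroma. In tdTomato+ stroma it had 23.9, 72.2, 102.4 and 3.99 CPM without and 3.53, 6.18 and 5.45 CPM with hormone, so the untreated mice were spread widely. The luminal epithelial markers in the same untreated tdTomato+ libraries summed to 75.7, 260.1, 432.4 and 18.0 CPM, the same order as Fgfr2, and their part in the result was not tested. The log2 change of Fgfr2 was 0.92 ± 0.53 (SE; adjusted p = 0.17, edgeR) with all libraries and 1.84 (adjusted p = 0.002, edgeR) without untreated tdTomato+ replicates 2 and 3, a change that also let Fgfr3 pass, at -1.08 (adjusted p = 0.0065, edgeR) in place of -0.85 ± 0.3 (SE; adjusted p = 0.024, edgeR).

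**Figure D3:**
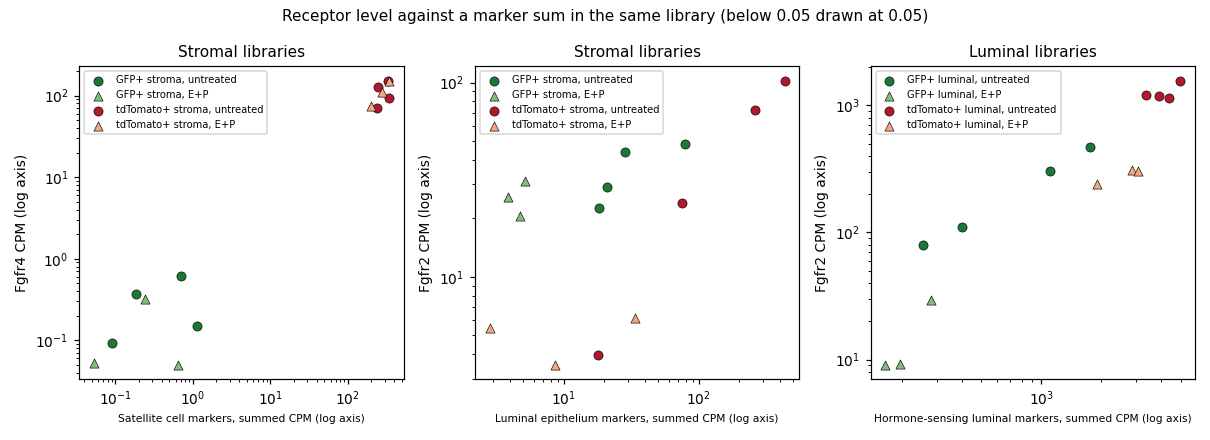
CPM of a receptor against the summed CPM of a marker list in the same library, both on log axes: Fgfr4 and satellite cell markers in stroma, Fgfr2 and luminal epithelial markers in stroma, and Fgfr2 and hormone-sensing markers in luminal cells. The 7 tdTomato+ stromal libraries, with satellite sums of 201.4 to 338.8 CPM, stand apart from GFP+ stroma in the left panel.

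GFP+ and tdTomato+ luminal cells differed in 2 of the 6 genes that could be tested, against 34.7% of 16538 genes. Fgf7, Fgf10 and Fgf18 were below the filter on low counts in luminal cells and were not tested there. Fgfr2 was lower in GFP+ luminal cells, with a log2 change of -3.32 ± 0.43 (SE; adjusted p = 6e-05, edgeR), and Fgfr3 was higher, by 2.17 ± 0.26 (SE; adjusted p = 2.9e-05, edgeR), both in 7 of 7 mice. Fgf2 was at 1.32 ± 0.52 (SE; adjusted p = 0.05, edgeR), Fgf1 at -0.4 ± 0.31 (SE; adjusted p = 0.31, edgeR), Fgfr1 at 0.2 ± 0.22 (SE; adjusted p = 0.49, edgeR) and Fgfr4 at 0.31 ± 1.06 (SE; adjusted p = 0.83, edgeR). Within untreated GFP+ luminal libraries Fgfr2 went with the hormone-sensing markers, whose sums were 1109.3, 401.2, 1753.6 and 254.6 CPM in replicates 1 to 4. The tdTomato+ luminal libraries had sums of 1892 to 4979 CPM, and luminal progenitor markers summed to 1483 to 3418 CPM in GFP+ and 150.4 to 930.5 CPM in tdTomato+ luminal libraries. The part of these cell kinds in the Fgfr2 and Fgfr3 differences was not tested.

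The difference between GFP+ and tdTomato+ cells was itself compared between stroma and luminal cells, and 5 of 9 genes passed, against 33.2% of all genes. The log2 difference between the changes was 4.23 ± 0.7 for Fgfr2 (SE; adjusted p = 3.3e-05, edgeR), -3.04 ± 0.37 for Fgfr3 (SE; adjusted p = 1.9e-07, edgeR), -9.63 ± 1.31 for Fgfr4 (SE; adjusted p = 2.3e-06, edgeR) and -2.35 ± 0.49 for Fgf1 (SE; adjusted p = 0.00037, edgeR). Fgfr1 passed narrowly, at 0.98 ± 0.29 (SE; adjusted p = 0.0075, edgeR), and was lost without untreated replicate 1 or 4 or any of the 3 E+P replicates, with adjusted p from 0.011 to 0.041. Without untreated replicate 4 the value of Fgfr4 could not be estimated. Fgf10 gave no usable value here because the tdTomato+ luminal libraries held no read.

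E+P was then compared with no treatment in each fraction. Fgfr1 was lower with hormone in both luminal fractions and Fgfr2 in the GFP+ luminal fraction, and no gene of the 9 passed in stroma. Of the 6 genes tested in luminal cells, 2 passed in the GFP+ fraction, both lower, against 5.96% of 16538 genes, 2.78% of them lower, and 1 passed in the tdTomato+ fraction, also lower, against 14.1%, with 6.44% lower.

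Fgfr1 in GFP+ luminal cells had 454.3, 535.1, 257.3 and 214.0 CPM without and 68.2, 112.6 and 133.9 CPM with hormone, and in tdTomato+ luminal cells 319.5, 242.5, 226.6 and 331.4 CPM without and 81.8, 114.1 and 104.5 CPM with hormone. In each fraction all E+P mice lay below all untreated mice. The log2 change was -1.8 ± 0.33 in GFP+ cells (SE; adjusted p = 0.004, edgeR) and -1.46 ± 0.33 in tdTomato+ cells (SE; adjusted p = 0.0061, edgeR). Both calls were near the threshold. Without the low-count filter neither passed (adjusted p = 0.016 and 0.023, edgeR), and in a fit of the compared groups alone the GFP+ call was lost (adjusted p = 0.026, edgeR). Neither passed with the replicate number as a block (adjusted p = 0.012 and 0.015, edgeR). In GFP+ cells the adjusted p rose to between 0.01 and 0.03 without untreated replicate 1 or 2 or any of the E+P replicates, and in tdTomato+ cells to between 0.019 and 0.027 without untreated replicate 1 or any of the E+P replicates, while the log2 change stayed between -1.99 and -1.35 in these fits.

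Fgfr2 fell from 241.1 ± 182.5 CPM (SD, n = 4) to 15.8 ± 11.6 CPM (SD, n = 3) in GFP+ luminal cells, with a log2 change of -3.94 ± 0.65 (SE; adjusted p = 0.0025, edgeR). In tdTomato+ luminal cells the means were 1278.8 ± 195.3 CPM (SD, n = 4) and 285.6 ± 38.2 CPM (SD, n = 3), a log2 change of -2.14 ± 0.59 that did not pass (SE; adjusted p = 0.018, edgeR). Untreated and E+P mice did not overlap in either fraction, and the exact two-sided permutation test gave p = 0.0286 for each, the smallest that 4 mice against 3 allow, and 0.309 after adjustment over 54 tests. The GFP+ call was lost without untreated replicate 1 or E+P replicate 2 or 3, with adjusted p of 0.011, 0.028 and 0.019 in edgeR, and in a fit of the compared groups alone (adjusted p = 0.026, edgeR). The tdTomato+ difference passed with DESeq2 (adjusted p = 0.0019), limma-voom (adjusted p = 0.0023) and edgeR on the compared groups alone (adjusted p = 4.9e-05).

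Summed hormone-sensing markers were 254.6 to 1753.6 CPM without and 165.7 to 281.5 CPM with hormone in GFP+ luminal libraries, and 3367 to 4979 and 1892 to 3069 CPM in tdTomato+ luminal libraries. The 6 markers did not all move alike. In tdTomato+ luminal cells the median of Prlr, which makes up most of the sum, was 2867 CPM without and 1603 CPM with hormone, and that of Esr1 256.5 and 131.8 CPM. There the median of Pgr was 474.4 CPM without and 725.6 CPM with hormone, and that of Areg 301.6 and 341.9 CPM. The part of these markers' cells in the Fgfr1 and Fgfr2 values was not tested. Without the GFP+ luminal untreated replicates 1 and 3, the highest in the sum, the log2 change of Fgfr2 in GFP+ cells was -2.6 (adjusted p = 0.0073, edgeR). In the same fit Fgfr1 in GFP+ cells was at -1.84 and no longer passed (adjusted p = 0.015, edgeR).

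**Figure D4:**
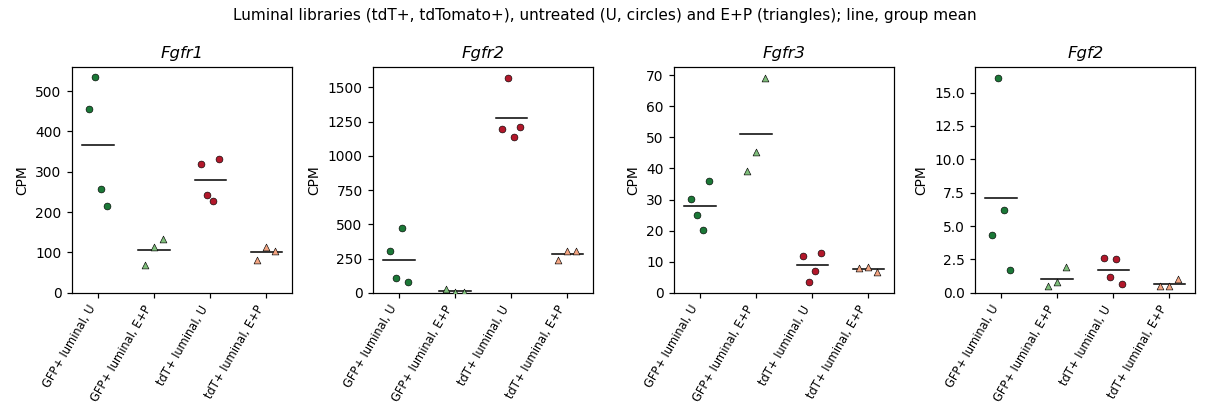
CPM of Fgfr1, Fgfr2, Fgfr3 and Fgf2 in the 14 luminal libraries, untreated (circles) and with E+P (triangles), with a line at the group mean and axes that start at 0. Fgfr1 and Fgfr2 with E+P lie below the untreated libraries in both fractions, and Fgfr3 in GFP+ cells lies above them, at 39.1 to 69.2 CPM.

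Fgfr3 and Fgf2 did not pass in GFP+ luminal cells. Fgfr3 had 20.2 to 36.0 CPM without and 39.1, 45.3 and 69.2 CPM with hormone, with no overlap and a log2 change of 0.88 ± 0.35 (SE; adjusted p = 0.11, edgeR). In tdTomato+ luminal cells it had 3.47 to 12.8 CPM without and 6.76 to 8.13 CPM with hormone. Fgf2 had 4.31, 16.1, 6.23 and 1.73 CPM without and 0.476, 0.808 and 1.92 CPM with hormone in GFP+ cells, which overlapped at 1 library, with a log2 change of -2.68 ± 0.75 (SE; adjusted p = 0.03, edgeR). It passed with DESeq2 (adjusted p = 0.0012) and without untreated replicate 4 (adjusted p = 0.0075, edgeR). Fgf18 in tdTomato+ luminal cells gave 5 reads in the untreated and 16 in the E+P libraries, too few for the filter.

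The hormone response was compared between the GFP+ and tdTomato+ fractions of luminal cells, and none of the 6 genes passed, where 2.27% of all genes did. The nearest was Fgfr2, with a log2 difference between responses of -1.81 ± 0.79 (SE; adjusted p = 0.2, edgeR). DESeq2, limma-voom and the other alternatives gave no call either, and 1 gene, Fgfr2, had an unadjusted p under 0.05.

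In stroma, E+P left 0 of 9 genes called in GFP+ cells, where 0.231% of 17783 genes passed, and 0 of 9 in tdTomato+ cells, where 0.124% did. Unadjusted edgeR p were under 0.05 for 0 genes in GFP+ stroma and for 3 in tdTomato+ stroma. Those were Fgfr2 with a log2 change of -3.32 ± 0.84 (SE; adjusted p = 0.093, edgeR), Fgf18 with -1.02 ± 0.39 (SE; adjusted p = 0.2, edgeR) and Fgf2 with -0.74 ± 0.27 (SE; adjusted p = 0.19, edgeR). Fgfr2 passed there with DESeq2 (adjusted p = 0.00088), without the low-count filter and without untreated replicate 4 (adjusted p = 0.0054, edgeR), and it was -1.48 (adjusted p = 0.18, edgeR) without the 2 untreated libraries highest in luminal markers. DESeq2 and limma-voom called 0 genes in GFP+ stroma, and limma-voom 0 in tdTomato+ stroma. In GFP+ stroma the ligands had overlapping ranges. There Fgf7 had 52.8 to 83.7 CPM without and 62.4 to 87.4 CPM with hormone. Fgf10 had 40.9 to 109.3 and 39.1 to 81.8 CPM. In tdTomato+ stroma Fgf18 did not overlap, with 2.53 to 7.42 CPM without and 1.38 to 2.51 CPM with hormone, and the other ligands overlapped. Between the stromal fractions the responses differed in 0 of 9 genes, against 0.045% of all genes, with Fgfr2 at 2.85 ± 1.06 on the log2 scale (SE; adjusted p = 0.38, edgeR) and as the 1 gene with an unadjusted p under 0.05, and DESeq2 and limma-voom called 0.

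Of 80 other genes of the pathway listed, 79 were found. Between stroma and luminal cells 69 were tested and 37 were higher and 15 lower in stroma, where of all genes 33.0% were higher and 30.5% lower. Of the other secreted ligands, 5 of 13 were tested and 4 were higher in stroma. Among these Fgf23, an endocrine ligand of bone, had 3.12 to 19.9 CPM in untreated GFP+ stroma and at most 0.604 CPM in luminal cells. Of the 13 ligands, 5 passed the low-count filter in the stromal libraries alone and 0 in the luminal libraries alone. The direction of these 4 calls was therefore largely set by the filter. Of the feedback inhibitors 6 of 10 were higher and 3 lower in stroma, with a median log2 change of 1.11 where all genes had 0.02. The Sprouty genes and Il17rd belong to the first, and Dusp6, a phosphatase of ERK, to the second, at -1.81 ± 0.14 (SE; adjusted p = 1.4e-11, edgeR). Dusp6 had 15.8 to 36.8 CPM in stroma and 27.7 to 196.1 CPM in luminal cells.

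Heparan sulphate is the co-receptor of FGFs. Of the 11 proteoglycans tested 7 were higher and 4 lower in stroma, and of the 16 enzymes 11 were higher and 1 lower, against the same 33.0% and 30.5% of all genes. For the glypican Gpc3 the log2 change of stroma over luminal cells was 8.75 ± 0.26 (SE; adjusted p = 5.3e-19, edgeR), with 333.6 to 425.1 CPM in untreated GFP+ stroma, 47.0 to 91.7 in untreated tdTomato+ stroma and at most 1.14 in luminal cells. Hs6st2, a 6-O-sulphotransferase, was higher by 6.31 ± 0.43 (SE; adjusted p = 7.9e-13, edgeR), and in stroma it ran against Gpc3, with 18.0 to 25.7 CPM in untreated tdTomato+ and 0.155 to 1.83 CPM in untreated GFP+ cells. Sulf2, which removes 6-O-sulphate outside the cell, was the 1 enzyme lower in stroma, at -2.37 ± 0.13 (SE; adjusted p = 1.4e-14, edgeR), and Syndecan-4 (Sdc4) was lower at -1.54 ± 0.11 (SE; adjusted p = 1.6e-12, edgeR).

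Between the stromal fractions 66 of the listed genes were tested, and 23 were higher and 17 lower in GFP+ stroma, against 20.6% and 21.3% of all genes. The enzymes of heparan sulphate contributed 11 higher and 4 lower of 16, with a median log2 change of 0.92 where all genes had -0.01. Sulf2 led at 3.46 ± 0.18 (SE; adjusted p = 6.5e-11, edgeR). The glypican Gpc3, a proteoglycan and not an enzyme, followed at 2.97 ± 0.16 (SE; adjusted p = 1.2e-10, edgeR). The enzyme Hs3st1 was at 2.15 ± 0.3 (SE; adjusted p = 1.1e-05, edgeR). Lower were Hs6st2 at -4.0 ± 0.35 (SE; adjusted p = 4.7e-08, edgeR), the feedback inhibitor Spry4 at -2.5 ± 0.14 (SE; adjusted p = 1.1e-10, edgeR) and Hs3st3b1 at -2.3 ± 0.3 (SE; adjusted p = 5.2e-06, edgeR). Spry4 had 30.7 to 70.0 CPM in GFP+ and 169.5 to 301.0 CPM in tdTomato+ stroma.

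Between the luminal fractions 61 were tested, and 21 were higher and 16 lower in GFP+ cells, where 34.7% of all genes passed. Sulf1 at 3.11 ± 0.62 (SE; adjusted p = 0.0011, edgeR), Hs3st3b1 at 2.76 ± 0.42 (SE; adjusted p = 0.00016, edgeR) and Flrt3, a membrane protein that binds FGF receptors, at 2.7 ± 0.24 (SE; adjusted p = 3.4e-06, edgeR) were higher. Gpc1 at -2.22 ± 0.25 (SE; adjusted p = 1.9e-05, edgeR), Il17rd at -2.09 ± 0.29 (SE; adjusted p = 5.2e-05, edgeR) and Spred3 at -1.32 ± 0.2 (SE; adjusted p = 9e-05, edgeR) were lower.

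With E+P, 3 of 61 listed genes passed in GFP+ luminal cells, 1 higher and 2 lower, and 14 passed in tdTomato+ luminal cells, 8 higher and 6 lower. Of all genes 5.96% and 14.1% passed, so the first count was near the share over all genes. Glypicans Gpc4 and Gpc6 passed in both fractions, in opposite directions. Gpc4 had 28.2 to 34.2 CPM without and 49.4 to 54.9 CPM with hormone in GFP+ cells and 12.1 to 19.0 and 43.6 to 46.9 CPM in tdTomato+ cells, with log2 changes of 0.71 ± 0.13 (SE; adjusted p = 0.0032, edgeR) and 1.53 ± 0.13 (SE; adjusted p = 4.2e-06, edgeR). Gpc6 had 120.2 to 340.3 CPM without and 17.6 to 59.5 CPM with hormone in GFP+ cells and 23.4 to 57.2 and 5.77 to 9.78 CPM in tdTomato+ cells, with log2 changes of -2.4 ± 0.48 (SE; adjusted p = 0.0064, edgeR) and -2.57 ± 0.5 (SE; adjusted p = 0.0028, edgeR). In GFP+ cells Sdc4 was the other lower gene, at -1.1 ± 0.15 (SE; adjusted p = 0.00057, edgeR). Spry1 was higher in tdTomato+ cells, at 1.19 ± 0.22 (SE; adjusted p = 0.0015, edgeR). Ext1 was also higher there, with a log2 change of 1.03, and Hs6st1 and Spred1 were lower, at -1.07 and -0.84. Of the feedback inhibitors 1 was higher and 1 lower in these cells. In stroma 0 of 66 listed genes passed with E+P in either fraction.

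As a description, the genes most like each ligand or receptor over the 28 libraries were sought among 11399 genes with at least 10 CPM in a group, by Pearson's r of log2 CPM. The libraries share mice, lineages and sort gates, so these values describe the division of the 8 groups. Fgfr4 was most like Pax7 (r = 0.973), Pvalb (0.969) and Myf5 (0.969), genes of muscle and its satellite cells. Fgfr2 was most like Fer1l4 (0.969), Ptn (0.951) and Cited1 (0.939), a coactivator of the hormone-sensing cells. Fgf7 was most like Islr (0.99), Gm42640 and Osr2 (both 0.989), and Ptgfr and Aida were among the genes most like Fgf10 (both 0.98). For Fgf2 these were Scg3 (0.95), Apod (0.948) and Selenom (0.947), for Fgf18 Lsp1 (0.969), Gng4 and Plekho2 (both 0.968), for Fgfr1 C1ra (0.945), Serpinb9 (0.944) and Tnfsf12 (0.943), and for Fgfr3 Slmap (0.958), Ogfrl1 (0.95) and Cmas (0.941). Fgf1 had the loosest match, with Ss18l1 at 0.885, Ythdc1 at 0.849 and Arih2 at 0.843. Among the 9 genes themselves the highest r was 0.96, between Fgf10 and Fgf7, and the lowest -0.81, of Fgfr3 with Fgf7 and with Fgf18.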

How the data were processed

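RNA of sorted cells was amplified with a stranded total RNA kit from 2 ng input and sequenced in paired reads. The methods report a wide range of RNA quality and a fragmentation time modified for RNA of lower quality. The part of RNA quality in the results was not tested. The authors aligned the reads with STAR 2.5.2a to GRCm38.p5 and deposited raw read counts per gene, without normalization or molecular identifiers. The GENCODE release and the strand setting are not given in the sources used here. Gene symbols with their positions came from GENCODE M21 (GRCm38), in which 50376 of 50600 gene IDs were found, and upstream sequences from RefSeq (GRCm38.p6), which had windows for 7 of the 9 genes.

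Groups were taken from the sample titles. Counts were filtered with filterByExpr, scaled by TMM and fitted in R 4.3.3 with edgeR 4.0.16, whose two-sided quasi-likelihood test ran over all genes. All 28 libraries entered comparisons between lineages, and stromal or luminal libraries alone entered the others. A gene was called at a Benjamini-Hochberg adjusted p below 0.01, the authors' threshold. The SE of a log2 change is its size over the square root of F. CPM were scaled by TMM, and log2 CPM had a prior count of 2. Single values were also tested by exact permutation over mice. The fits were tested on simulated counts with 200 changed genes. Fold changes of E+P are given where the unadjusted p was below 0.05.

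Fractions with the same replicate number and treatment came from the same mouse, as the titles number them. Deviations from group means correlated by 0.157 on average between luminal fractions and 0.0496 between stromal fractions of the same mouse, against -0.0605 and -0.0194 between different mice. Untreated and E+P mice are different animals. Within groups, libraries correlated by 0.917 to 0.984, and no batch is given in the labels.

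The genes, lists and tests were chosen with earlier results of these data known. Besides the 9 genes, the text names up to 3 listed pathway genes per direction and comparison that passed, reached 10 CPM in the higher group and kept their direction in every mouse (for E+P, groups without overlap), and the 3 genes most like each member, 1 of which is not reported here. Alternatives were DESeq2 1.42.0, limma-voom 3.58.1, other scalings, no filter, a threshold of 0.05, blocks, smaller fits and leaving out each mouse. Chosen after seeing the data were leaving out libraries by marker sums and taking Fgfr1, Fgfr2 and Fgfr3 per marker reads. Read counts limit precision to counting error at best, since reads are not independent molecules.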

Additional observations from a re-analysis of the deposited data

Results flagged for a closer look

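The difference between GFP+ and tdTomato+ cells was not the same in stroma and in luminal cells for 5 of the 9 genes, by a test of the difference itself (edgeR, change in stroma minus change in luminal cells, on the log2 scale). The value was -2.35 for Fgf1 (adjusted p = 0.00037), 0.98 for Fgfr1 (adjusted p = 0.0075), 4.23 for Fgfr2 (adjusted p = 3.3e-05), -3.04 for Fgfr3 (adjusted p = 1.9e-07) and -9.63 for Fgfr4 (adjusted p = 2.3e-06). For Fgfr2 the change was 0.92 in stroma and -3.32 in luminal cells, and for Fgfr3 it was -0.85 and 2.17. For Fgf1 it was -2.74 and -0.4, for Fgfr1 1.19 and 0.2, and for Fgfr4 -9.24 and 0.31. In untreated tdTomato+ luminal cells Fgfr2 in replicate 2, at 1567.9 CPM, stood apart from the other 3 libraries by Dixon's test on CPM, with a ratio of 0.8296 just above the critical value. Among the 27 groups of 4 with a mean of at least 1 CPM no other library did so on CPM, and none on log2 CPM, and chance flags about 1 group in 20.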

How the results depend on the processing

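Of 40 calls of the 9 genes, 40 kept their direction in every alternative that gave a value, and 35 also kept their side of the threshold. The other 5 were Fgfr4 between stroma and luminal cells, Fgfr1 in the difference between the subset differences, Fgfr1 with E+P in both luminal fractions and Fgfr2 with E+P in GFP+ luminal cells. Fgf1 between stroma and luminal cells turned to -0.01 with total count scaling and ran from -0.02 to 0.47 when single mice were left out, and Fgfr4 within GFP+ cells ran from -1.76 to 1.64. Total count scaling moved the median of all genes to between -0.42 and 0.14.

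The number of the 9 genes called moved by more than 1.5 times as follows, and the cause was not tested. With E+P in GFP+ luminal cells 2 genes were called, but 1 without the low-count filter, 0 in a fit of the compared groups alone, 1 without the GFP+ libraries highest in hormone-sensing genes and 0 to 3 when single mice were left out. With E+P in tdTomato+ luminal cells 1 gene was called, but 2 at an adjusted p of 0.05, with DESeq2, with limma-voom, in a fit of the compared groups alone and without those GFP+ libraries, 0 without the low-count filter, and 0 to 1 when single mice were left out. With E+P in tdTomato+ stroma 0 genes were called, but 1 with DESeq2, 1 without the filter and 0 to 1 when single mice were left out. The difference between the stromal responses gave 1 call without the filter. The difference between the subset differences gave 5 calls and 3 to 5 when single mice were left out. Smaller moves were to 3 calls with E+P in GFP+ luminal cells at an adjusted p of 0.05 and with DESeq2, to 7 from 6 between GFP+ stroma and GFP+ luminal cells at 0.05 and with total count scaling, to 8 or 9 from 7 between the stromal fractions in 4 alternatives, and to between 4 and 7 for the difference between the subset differences. Fgfr2 with E+P, taken per read of hormone-sensing markers, whose own levels differed between treatments, had a log2 change of -2.14 in GFP+ and -1.47 in tdTomato+ luminal cells. On that scale Fgfr1 had -0.08 and -0.79, and Fgfr3 2.54 and 0.66, in the same order of fractions. Per read of luminal epithelial markers the values were -1.39 and -1.47 for Fgfr1, -3.45 and -2.15 for Fgfr2, and 1.23 and -0.02 for Fgfr3.

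Under a block for the mouse, the comparisons of fractions and of lineages kept 8, 6, 9, 5, 7 and 2 calls and changed no call. With the replicate number as a block between untreated and E+P mice, which share only a number, 2 genes were called in GFP+ luminal cells, Fgf2 and Fgfr2, and 0 in tdTomato+ luminal cells. Same-numbered untreated and E+P libraries had a mean correlation of deviations of -0.0149. A low-count filter kept Fgf7, Fgf10 and Fgf18 out of the luminal fits, so differences in these 3 genes within luminal cells were not tested in those fits. Fgfr4 was tested with at most 31 reads per luminal group and did not pass. With so few reads, the lack of a call does not show equal levels.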
